A study of Mus musculus with 11 samples.

Results

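A set of 10 genes of the basal, milk-ejecting layer of the mammary gland were compared between genotypes: Krt5, Krt14, Krt17, Trp63, Oxtr, Acta2, Myh11, Cnn1, Mylk and Tagln. They were taken by name, as 4 genes of basal identity, 1 hormone receptor and 5 genes of the contractile apparatus, and are 10 of 22196 genes with an annotated transcript in the files. RNA had been sequenced from inguinal mammary glands of mice with and without Tsc1 in fat cells, in 6 Knockout and 5 Wild-Type libraries. Tsc1 encodes a subunit of the complex that holds back mTORC1, a kinase complex that drives cell growth. All mice carried floxed alleles (Tsc1-fl/fl) and ate normal chow, and glands were taken 16 days after delivery, with the age label PND16.5. Knockout mice were also Adipoq-Cre-Tg/+ and Wild-Type mice Adipoq-Cre-+/+. The adiponectin promoter drives Cre in adipocytes, whereas the 10 genes are known from myoepithelium. The labels do not state that the mice were lactating, and they name no litter or batch. Nothing in them says that the libraries come from separate animals beyond calling them separate samples, so p-values measure the spread between these samples.

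Myoepithelial cells lie between the milk-secreting luminal cells and the basement membrane. They combine basal keratins, which form their intermediate filaments, with a smooth muscle type of contractile apparatus. Oxytocin released during suckling binds its receptor on these cells, calcium enters the cytosol, calmodulin activates myosin light chain kinase, and the cells contract and expel milk. Vascular smooth muscle cells use the same contractile proteins, and skin and hair follicle cells the same keratins and Trp63. In RNA from whole tissue, fewer cells of a type and less RNA per cell cannot be told apart.

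The libraries held between 25817975 and 37894237 estimated reads. The 12 milk protein genes of the list used here took between 62.0% and 72.1% of the counts of a library, against between 0.0436% and 0.0946% for the 10 genes together. Levels are given as CPM, read counts scaled to a common library size with edgeR's TMM factors, and fold changes are Knockout over Wild-Type on the log2 scale. Adjusted p-values are from edgeR's quasi-likelihood test with Benjamini-Hochberg adjustment over 12716 genes, and a gene is said to be called where this is under 0.05. Tsc1 itself stood at 10.1 ± 1.33 CPM in Knockout against 10.7 ± 1.11 CPM in Wild-Type (SD; n = 6 and n = 5; edgeR adjusted p = 0.772). Summed over the coding sequence, which is what the deposited tables cover, and over the whole gland, this level does not check the deletion in adipocytes.

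All 10 genes had a higher mean in Knockout than in Wild-Type libraries, and none was called. Over all genes tested, 0.0472% were called higher in Knockout (6 genes) and 0.00786% lower (1 gene). Trp63 and Krt5 had an unadjusted edgeR p under 0.05 and were higher in Knockout, where 6.31% of all genes fell in that class. No member was in the class of lower genes with such a p, which held 6.08% of all genes. The ranges of the genotypes overlapped for every member, whereas they did not overlap for 1.32% of all genes. The median log2 fold change was 0.42 over the 4 basal genes, 0.21 over the 5 contractile genes and 0.23 over all 10, beside -0.01 over all genes tested, of which 48.3% were higher in Knockout. Members share cell types and vary together, so their common direction is not 10 separate observations.

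**Figure D1:**
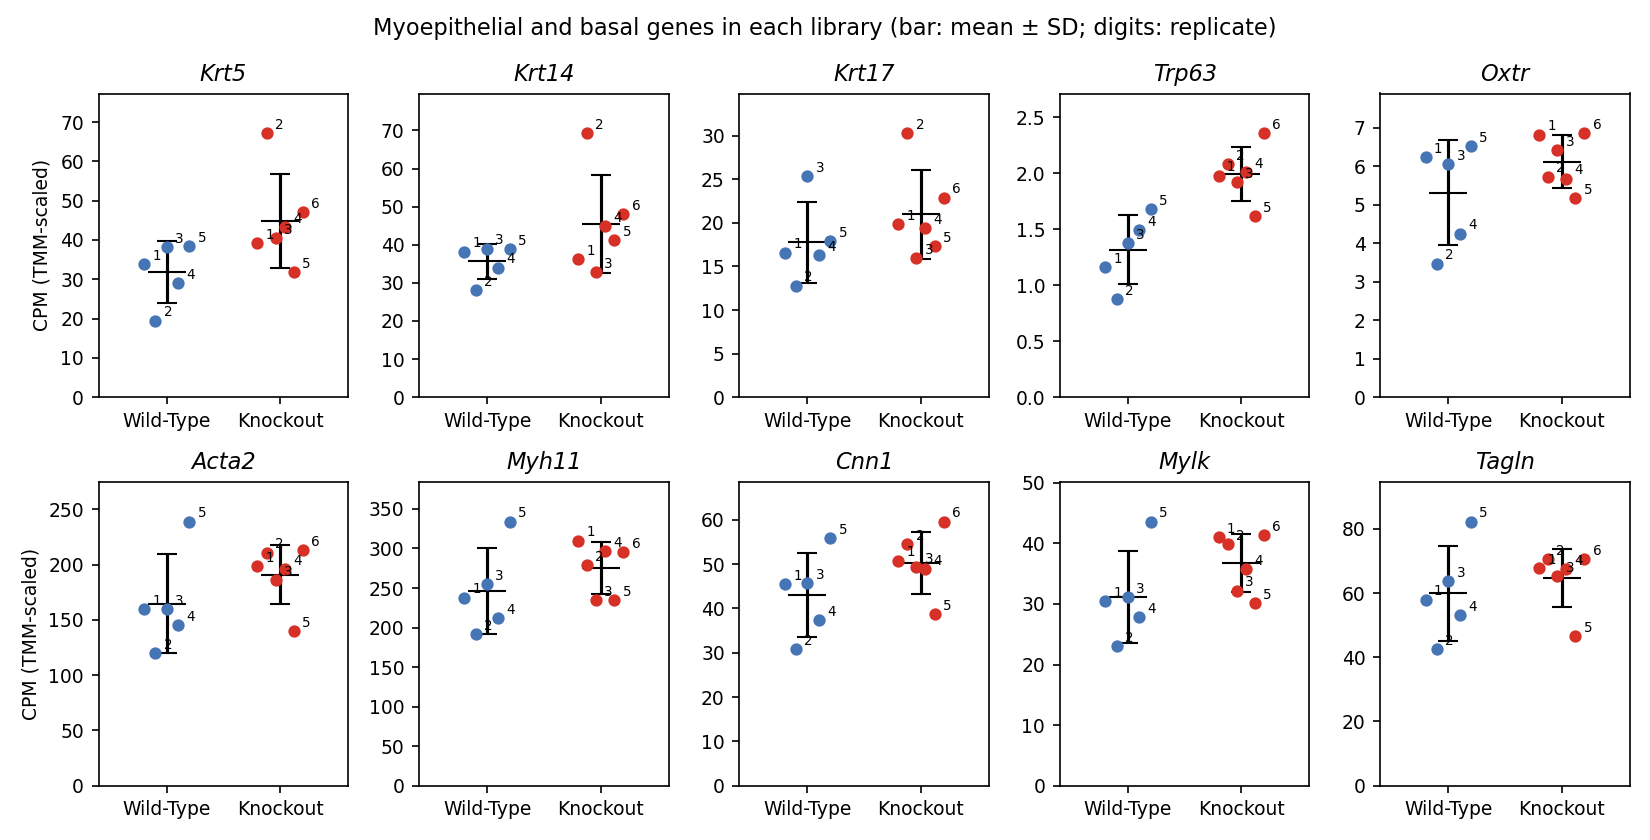
CPM after TMM scaling of each of the 10 genes in the 5 Wild-Type (blue) and 6 Knockout (red) libraries, with the mean and SD as bars and the replicate number beside each point. Wild-Type 2 is the lowest library in every panel, Knockout 2 is the highest for the 3 keratins, and the genotypes overlap for each gene.

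The keratins were examined for shared sequence first, since the estimated counts divide reads that match several genes. Of the 31-base words in the coding sequence of Krt14, 34.2% also occur in another gene, and 21.3% occur in Krt16, a keratin of injured and hyperproliferative skin. For Krt17 the share was 18.9%, with Krt14 as the main partner (14.2% of words), and for Krt5 it was 16.1%, with Krt6a as the main partner (12.0%). The main partners of Krt14 and Krt5 outside the set held few reads: Krt16 had 33 and Krt6a 47 estimated reads over the 11 libraries, against at least 307 reads for each of the 3 keratins in any library. Krt15, another basal keratin, shares 2.83% of the words of Krt17 and was itself abundant, with 10628 reads over the 11 libraries. How well the estimate divided reads between these genes was not tested. Acta2 shared 2.36% of its words with the cytoplasmic actin gene Actg1, and 1.16% of the words of Myh11 occurred in another gene, mainly the non-muscle myosin gene Myh9. No word of Trp63, Oxtr, Cnn1, Mylk or Tagln occurred in the coding sequence of another gene. The longest stretch common to the members Krt14 and Krt17 is shown because reads inside it fit both. Its 71 shared bases are in capitals, with 15 bases of each gene on either side in lower case, read along the coding strand (minus strand, GRCm38, GENCODE M21); they lie at chr11:100204114-100204184 in a coding exon of Krt14 and at chr11:100257439-100257509 in one of Krt17.
Krt14: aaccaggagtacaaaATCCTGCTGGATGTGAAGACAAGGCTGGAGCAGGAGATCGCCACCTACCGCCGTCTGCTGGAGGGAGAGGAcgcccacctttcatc
Krt17: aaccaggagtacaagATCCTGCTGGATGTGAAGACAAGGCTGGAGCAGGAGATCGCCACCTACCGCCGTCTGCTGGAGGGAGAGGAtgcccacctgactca

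Krt14 and Krt16 share a longer run of 134 bases, at chr11:100207017-100207150 in the Krt14 coding sequence and chr11:100248476-100248609 in that of Krt16. It is shown as the longest stretch common to Krt14 and Krt16, a gene outside the set to which an estimate could move reads. It is not the only such stretch of Krt14. The shared bases are in capitals.
Krt14: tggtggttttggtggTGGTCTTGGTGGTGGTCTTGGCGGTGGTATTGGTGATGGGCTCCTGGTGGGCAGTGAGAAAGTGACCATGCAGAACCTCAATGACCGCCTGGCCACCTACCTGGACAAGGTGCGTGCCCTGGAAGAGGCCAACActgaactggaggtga
Krt16: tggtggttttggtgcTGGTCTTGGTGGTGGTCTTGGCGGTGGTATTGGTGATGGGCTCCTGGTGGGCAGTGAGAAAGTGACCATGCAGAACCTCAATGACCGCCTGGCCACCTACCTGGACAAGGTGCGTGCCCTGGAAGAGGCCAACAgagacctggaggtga

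Krt5 encodes the type II keratin that pairs with keratin 14 in basal epithelial cells (ENSMUSG00000061527, chr15:101707070-101712898, minus strand). It stood at 39.3, 67.2, 40.5, 43.3, 31.9 and 47.0 CPM in Knockout 1 to 6 and at 33.8, 19.5, 38.3, 29.0 and 38.4 CPM in Wild-Type 1 to 5. Of the Knockout libraries, 5 were above every Wild-Type library, Knockout 5 lay among them, and Knockout 2 and Wild-Type 2 stood farthest out. Knockout averaged 44.9 ± 12.0 CPM against 31.8 ± 7.90 CPM in Wild-Type (SD; n = 6 and n = 5). The log2 fold change was 0.50 ± 0.20 (SE; 95% interval 0.05 to 0.94; edgeR adjusted p = 0.366).

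Krt14, its type I partner (ENSMUSG00000045545, chr11:100203162-100207548, minus strand), stood at 36.3, 69.3, 32.8, 44.8, 41.2 and 48.0 CPM in Knockout 1 to 6 and at 38.2, 28.2, 39.0, 34.0 and 38.9 CPM in Wild-Type 1 to 5. Knockout 2 was far above all others, Knockout 4, 5 and 6 lay above the highest Wild-Type library, and Knockout 1 and 3 lay within the Wild-Type range. The log2 fold change was 0.35 ± 0.17 (SE; 95% interval -0.03 to 0.72; edgeR adjusted p = 0.438). Krt17, a type I keratin of basal cells and skin appendages (ENSMUSG00000035557, chr11:100256217-100261029, minus strand), ranged from 16.0 over a median of 19.6 to 30.3 CPM in Knockout and stood at 16.6, 12.8, 25.4, 16.3 and 17.9 CPM in Wild-Type 1 to 5. Wild-Type 3 exceeded every Knockout library but Knockout 2. Its log2 fold change was 0.23 ± 0.19 (SE; 95% interval -0.18 to 0.65; edgeR adjusted p = 0.638).

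The keratin values lean on Knockout 2 and Wild-Type 2. Without Knockout 2 the log2 fold change was 0.35 for Krt5, 0.19 for Krt14 and 0.10 for Krt17. Without Wild-Type 2 it was 0.36, 0.27 and 0.14, and without both, a comparison added after the values were seen, 0.22, 0.12 and 0.01. Without Wild-Type 3 that of Krt17 was 0.40. The unadjusted edgeR p of Krt5 was above 0.05 without Knockout 2, Knockout 6, Wild-Type 2 or Wild-Type 4, and that of Trp63 stayed below 0.05 whichever library was left out. Knockout 2 had the highest sum over 13 epidermal and hair follicle markers, 41.3 CPM, against 5.92 to 12.6 CPM in the other Knockout and 3.19 to 7.44 CPM in the Wild-Type libraries. Krt10 and Krt1, keratins of the differentiating epidermis, stood at 10.6 and 6.51 CPM in it, and all 13 markers had reads. Only 4 of the 13 passed the filter on low counts. All 4 had higher means in Knockout (median log2 fold change 1.43), but a scarce marker can pass through the libraries where it is high. No genotype difference is therefore drawn from these 4. Knockout 2 also had the highest sums of luminal (1141 CPM) and fibroblast markers (664 CPM). The part of skin or of these other cells in the keratin values was not tested.

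Trp63 encodes p63, the transcription factor that maintains basal epithelial identity (ENSMUSG00000022510, chr16:25683763-25892102, plus strand). It stood at 1.98, 2.08, 1.92, 2.01, 1.62 and 2.36 CPM in Knockout 1 to 6 and at 1.16, 0.877, 1.38, 1.49 and 1.68 CPM in Wild-Type 1 to 5. All but 1 of the 6 Knockout libraries were above every Wild-Type library, and only Knockout 5 fell below Wild-Type 5. These levels rest on 21 to 89 reads a library. The log2 fold change of 0.59 ± 0.18 (SE; 95% interval 0.21 to 0.97) was the largest of the 10 (edgeR adjusted p = 0.270), at rank 243 of all genes by p. It was 0.48 without Wild-Type 2, the lowest value when 1 library was left out.

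Trp63 is transcribed from an upstream start, which gives the full-length TA forms, and from an internal start, which gives the delta N forms typical of basal epithelium. The first coding exons of both kinds are shown because they are where the forms part, with the start codon in capitals; on the plus strand of GRCm38 they lie at chr16:25684290-25684351 (TA) and chr16:25802060-25802101 (delta N).
TA: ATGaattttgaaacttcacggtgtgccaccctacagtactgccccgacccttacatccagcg
delta N: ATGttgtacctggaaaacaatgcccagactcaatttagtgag

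Of 597 estimated Trp63 reads over the 11 libraries, 593 were assigned to the 4 transcripts that begin at the delta N start. The other 3.56 reads came from Knockout 3 and Knockout 6. The delta N share was 99.1% ± 1.42 in Knockout (SD, n = 6) and 100% in each Wild-Type library (exact two-sided permutation test, p = 0.455, adjusted p = 0.669 over 3 transcript shares). The TA reads made up 3.28% and 2.00% of the Trp63 reads of those libraries, and 1 or 2 reads are too few to tell such shares from none in the others.

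Oxtr encodes the oxytocin receptor, which couples to phospholipase C and calcium release (ENSMUSG00000049112, chr6:112473683-112489943, minus strand). It stood at 6.82, 5.73, 6.41, 5.68, 5.18 and 6.86 CPM in Knockout 1 to 6 and at 6.23, 3.47, 6.06, 4.25 and 6.53 CPM in Wild-Type 1 to 5. Wild-Type 2 and Wild-Type 4 lay below all other libraries, and the remaining Wild-Type libraries lay among the Knockout ones. The log2 fold change was 0.20 ± 0.16 (SE; 95% interval -0.15 to 0.55; edgeR adjusted p = 0.633), 0.08 without Wild-Type 2 and 0.13 without Wild-Type 4. With transcript lengths as offsets it was 0.11. The hormone gene Oxt, expressed in the hypothalamus, had 4 reads in all libraries together.

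Relative to Acta2 in the same library, the mean of Oxtr on the CPM scale was equal to 2 decimals in both genotypes. The log2 ratio of Oxtr to Acta2 CPM was -4.94 ± 0.17 in Knockout against -4.94 ± 0.23 in Wild-Type (SD; n = 6 and n = 5; exact two-sided permutation test, p = 0.998, adjusted p = 0.998 over 4 ratios). A ratio within a library does not depend on the scaling between libraries, but taken on TPM its genotype difference, Knockout minus Wild-Type, was -0.10 (exact permutation test, p = 0.634).

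Acta2 encodes smooth muscle alpha-actin, the thin filament protein by which myoepithelium is usually recognised (ENSMUSG00000035783, chr19:34241090-34255590, minus strand). It stood at 199, 211, 186, 196, 140 and 213 CPM in Knockout 1 to 6 and at 160, 120, 160, 145 and 239 CPM in Wild-Type 1 to 5. The highest library was Wild-Type 5 and the lowest Wild-Type 2; Knockout 5 was below 4 of the 5 Wild-Type libraries. Knockout averaged 191 ± 26.6 CPM against 165 ± 44.4 CPM in Wild-Type (SD; n = 6 and n = 5). The log2 fold change was 0.21 ± 0.16 (SE; 95% interval -0.14 to 0.56; edgeR adjusted p = 0.613).

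Myh11 encodes smooth muscle myosin heavy chain, the motor of the apparatus (ENSMUSG00000018830, chr16:14194535-14291372, minus strand). It stood at 310, 279, 235, 297, 235 and 295 CPM in Knockout 1 to 6 and at 238, 192, 255, 212 and 334 CPM in Wild-Type 1 to 5. Wild-Type 5 was again highest and Wild-Type 2 lowest, and the log2 fold change was 0.16 ± 0.14 (SE; 95% interval -0.13 to 0.45; edgeR adjusted p = 0.655). Its log2 ratio to Acta2 was 0.53 ± 0.16 in Knockout against 0.59 ± 0.08 in Wild-Type (SD; n = 6 and n = 5; by exact permutation, p = 0.470, adjusted p = 0.627). The genotype difference in it, -0.06, lay between -0.10 (without Knockout 5) and -0.02 (without Knockout 3) when 1 library was left out.

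Mylk encodes myosin light chain kinase, the enzyme that starts contraction by phosphorylating the light chain (ENSMUSG00000022836, chr16:34745210-35002420, plus strand). It ranged from 30.1 over a median of 37.8 to 41.4 CPM in Knockout and stood at 30.5, 23.1, 31.1, 27.8 and 43.6 CPM in Wild-Type 1 to 5. Only Wild-Type 5 exceeded the Knockout median. Its log2 fold change was 0.24 ± 0.15 (SE; 95% interval -0.08 to 0.55; edgeR adjusted p = 0.529), and 0.15 with transcript lengths as offsets.

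Cnn1 encodes calponin, an actin-binding protein of smooth muscle (ENSMUSG00000001349, chr9:22099216-22109630, plus strand). It ranged from 38.7 over a median of 50.1 to 59.6 CPM in Knockout and stood at 45.5, 30.8, 45.8, 37.3 and 55.9 CPM in Wild-Type 1 to 5. Knockout 6 was highest and Wild-Type 5 next, and Knockout 5 lay below 3 Wild-Type libraries. The log2 fold change of Cnn1 was 0.22 ± 0.14 (SE; 95% interval -0.09 to 0.54; edgeR adjusted p = 0.548). Tagln encodes transgelin, an actin-binding protein and early marker of smooth muscle (ENSMUSG00000032085, chr9:45929619-45936058, minus strand; it overlaps Pcsk7 on the other strand, and the library kit keeps strand). It ranged from 46.6 over a median of 67.7 to 70.6 CPM in Knockout and stood at 58.0, 42.5, 63.7, 53.1 and 82.3 CPM in Wild-Type 1 to 5. All but 1 of the 6 Knockout libraries exceeded 4 of 5 Wild-Type libraries, while Wild-Type 5 was above all. Its log2 fold change was the smallest of the 10, 0.11 ± 0.15 (SE; 95% interval -0.22 to 0.45; edgeR adjusted p = 0.805).

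Leaving out Wild-Type 2 or Wild-Type 5 moved the contractile differences in opposite directions. Without Wild-Type 2 the log2 fold changes were 0.12 for Acta2, 0.08 for Myh11, 0.12 for Cnn1, 0.15 for Mylk and 0.01 for Tagln. Without Wild-Type 5 they were 0.38, 0.29, 0.34, 0.39 and 0.25 in the same order. That of Tagln was also 0.19 without Knockout 5 and 0.07 without Wild-Type 4. Wild-Type 5 and Wild-Type 2 had the highest sums of 8 B cell and lymph node markers, 95.7 and 68.9 CPM, against 1.14 to 21.8 CPM in the others; the part of this tissue in the contractile values was not tested. With Knockout 2 and Wild-Type 2 both left out, a comparison added after the values were seen, the median over the 10 genes was 0.10 and that of Tagln was -0.01. No member was called in any of these fits.

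**Figure D2:**
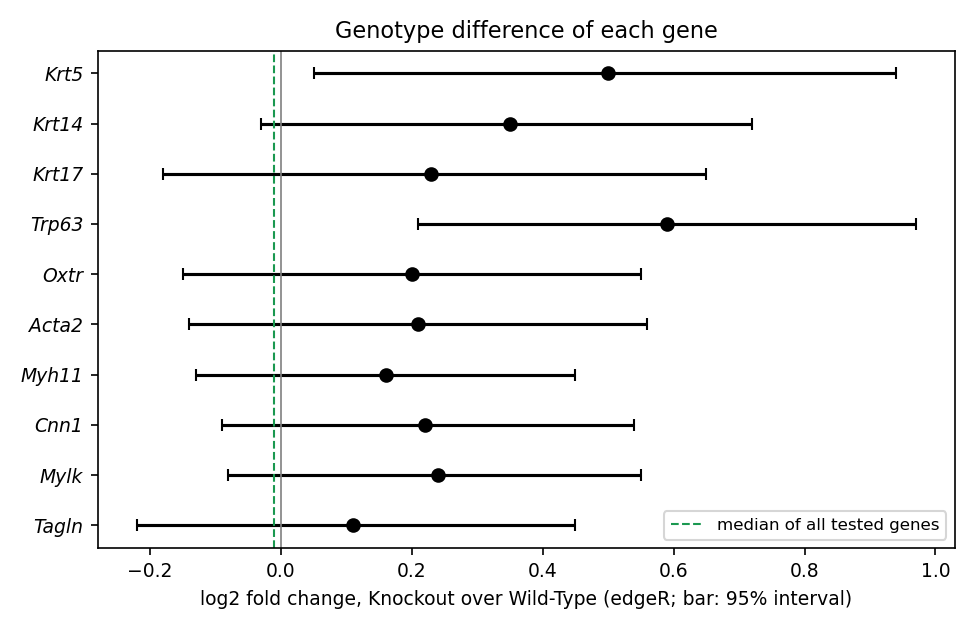
Log2 fold change, Knockout over Wild-Type, of the 10 genes from edgeR (points) with 95% intervals (bars), beside 0 (grey line) and the median of all 12716 tested genes (dashed green line). The intervals of Krt5 and Trp63 lie above 0 and those of the other 8 genes include it.

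The contractile genes and Oxtr varied together from library to library. The 10 pairs among the 5 contractile genes had Pearson r between 0.87 and 0.97 over the 11 libraries, and the 5 pairs of Oxtr with a contractile gene between 0.79 and 0.90. All 15 pairs had an adjusted permutation p under 0.05 (100000 resamples, adjusted over 45 pairs), as had 32 of the 45 pairs by r and 27 by Spearman rho. Over all pairs of the 12716 tested genes, 0.545% had r of at least 0.79 and 2.37% at least 0.67, the lowest r of the 32 pairs, against 25 and 32 of the 45 pairs of members. Acta2 with Tagln had r = 0.97 and rho = 0.98 (permutation test, adjusted p = 0.00011 and 0.00022). Krt5 with Krt14 had r = 0.87 and rho = 0.65, but r was 0.53 without Knockout 2 and Wild-Type 2. The least related pair was Krt14 with Oxtr, at r = 0.41 and rho = 0.21 (permutation test, adjusted p = 0.21 and 0.54). The 20 pairs of a basal with a contractile gene ran from 0.50 to 0.87. With the 2 libraries farthest from the median of a pair's first gene left out, r was 0.75 to 0.96 for the contractile pairs and 0.45 to 0.69 for those with Oxtr. Without Wild-Type 2 and Knockout 2, the libraries farthest out over all members, 13 of the 45 pairs passed, whereas with library totals as the only scaling 44 did. Within the 6 Knockout libraries alone r was 0.63 to 0.99 and 0.48 to 0.73 for these 2 kinds of pair.

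**Figure D3:**
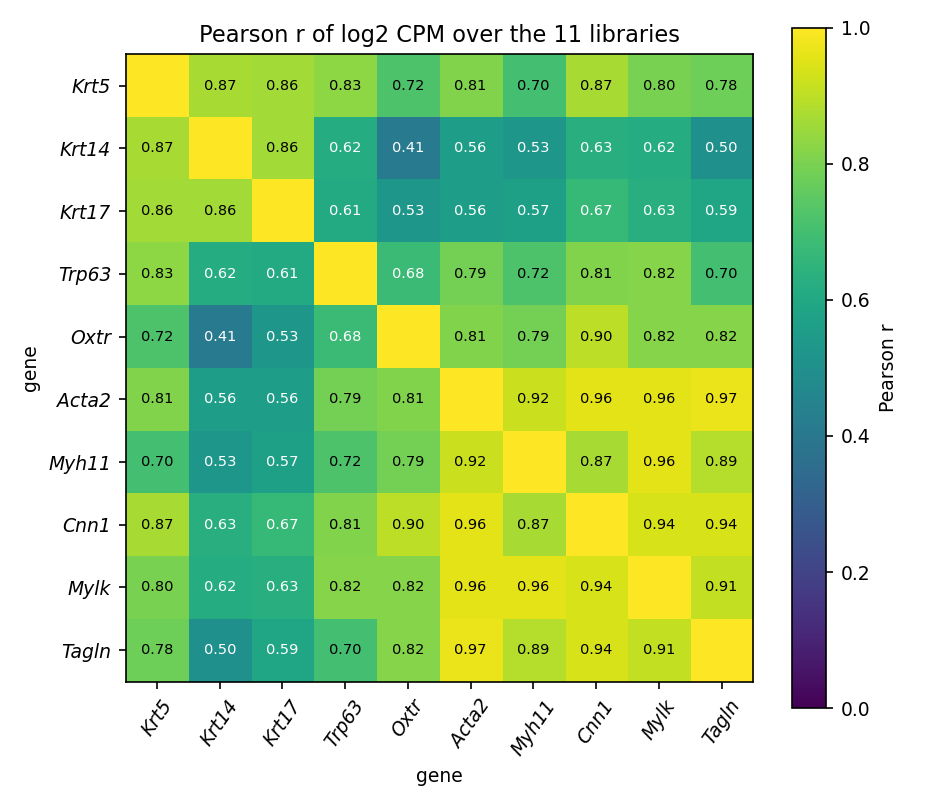
Pearson r between the log2 CPM values of each pair of the 10 genes over the 11 libraries, as number and colour (0 dark, 1 yellow). The contractile genes at the lower right reach 0.87 to 0.97, and Krt14 with Oxtr is lowest at 0.41.

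For a view by library, log2 values were taken relative to each gene's own mean and averaged over the 4 basal and the 5 contractile genes. Wild-Type 2 stood at -0.71 for the basal and -0.53 for the contractile genes, and at -0.69 for Oxtr. Knockout 2 stood at 0.66 for the basal but 0.21 for the contractile genes, Wild-Type 5 at -0.01 and 0.38, Knockout 6 at 0.35 and 0.27, and Knockout 5 at -0.08 and -0.25. The log2 ratio of Krt5 to Acta2 was highest in Knockout 2 (-1.65) and lowest in Wild-Type 5 (-2.64), with means of -2.11 ± 0.24 in Knockout against -2.38 ± 0.25 in Wild-Type (SD; n = 6 and n = 5; by exact permutation, p = 0.121, adjusted p = 0.406). Without Wild-Type 3 the genotypes differed by 0.34 in this ratio (exact permutation, p = 0.0286 before adjustment), and without Knockout 2 by 0.17 (exact permutation, p = 0.222). The log2 ratio of Krt14 to Krt5 was 0.01 ± 0.22 in Knockout against 0.20 ± 0.21 in Wild-Type (SD; n = 6 and n = 5; by exact permutation, p = 0.203, adjusted p = 0.406). The genotype difference in this ratio, Knockout minus Wild-Type, was -0.19, and it was -0.10 without Wild-Type 2 and -0.12 without Knockout 3. No exact test here can go below p = 0.00216.

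Levels between genes were compared per length, as mean TPM over the 11 libraries. Acta2 (79.7 ± 22.4 TPM, SD) and Tagln (73.9 ± 18.8 TPM, SD) were the most abundant, and the difference between them was smaller than the spread, although Acta2 was higher in 10 of 11 libraries. Cnn1 followed at 27.8 TPM, then Mylk at 17.9 and Myh11 at 16.2 TPM, whose order changed between libraries (Mylk higher in 7 of 11). Krt14 stood at 11.9, Krt5 at 9.38, Krt17 at 6.55, Oxtr at 5.57 and Trp63 at 0.43 TPM. Krt17 exceeded Oxtr in 7 of 11 libraries. The TPM of Mylk and Oxtr are governed by a short transcript each: Mylk-203 of 480 bases made up 90.9% of the TPM of Mylk, and Oxtr-202 of 228 bases 60.0% of the TPM of Oxtr with 6.01% of its reads. All 31-base words of either short transcript also occur in the long transcript of its gene, so that no such word sets it apart and its share is an estimate from how reads spread along the gene.

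Mylk-203 encodes telokin, the myosin-binding end of the kinase made as a protein of its own in smooth muscle. It took 23.5% ± 3.01 of the estimated reads of Mylk in Knockout against 24.4% ± 4.51 in Wild-Type (SD; n = 6 and n = 5), the rest falling to Mylk-201 of 5853 bases. The share ran from 19.7% to 30.0%, highest in Wild-Type 5, and did not differ between genotypes beyond the spread (exact permutation test, p = 0.669, adjusted p = 0.669). The genotype difference of -0.888 percentage points, Knockout minus Wild-Type, ran from -2.04 (without Wild-Type 2) to 0.497 (without Wild-Type 5) when 1 library was left out.

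Myh11 transcripts differ at the tail and by an exon that adds a stretch to the head of the motor near its nucleotide-binding site, the form known from phasic smooth muscle. The longer tail took 92.0% ± 1.14 of the reads in Knockout against 90.5% ± 1.68 in Wild-Type (SD; n = 6 and n = 5), and the genotypes differed by 1.48 percentage points (exact permutation test, p = 0.113, adjusted p = 0.339), or by 0.833 points without Wild-Type 5. The insert exon of 21 bases (chr16:14248580-14248600, minus strand) is shown in capitals with 20 bases of the spliced exons on either side, because it and its junctions are all that marks the transcript: 51 of its 5910 words of 31 bases are absent from the main transcript.
Myh11 with insert: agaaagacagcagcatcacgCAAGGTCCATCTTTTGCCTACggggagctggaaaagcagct

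The transcript with the insert took 12.0%, 17.9%, 6.26%, 7.15% and 22.0% of Myh11 reads in Wild-Type 1 to 5 and between 4.41% and 12.4% in the Knockout libraries. The means were 8.20% ± 2.76 in Knockout against 13.1% ± 6.82 in Wild-Type (SD; n = 6 and n = 5), and the difference was not tested. Wild-Type 5 and Wild-Type 2, with the highest shares, were also the libraries with the highest sums of B cell and lymph node markers. Whether this tissue plays a part in the share was not tested. Acta2, Tagln, Cnn1 and the 3 keratins were represented by 1 transcript with nearly all their reads.

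**Figure D4:**
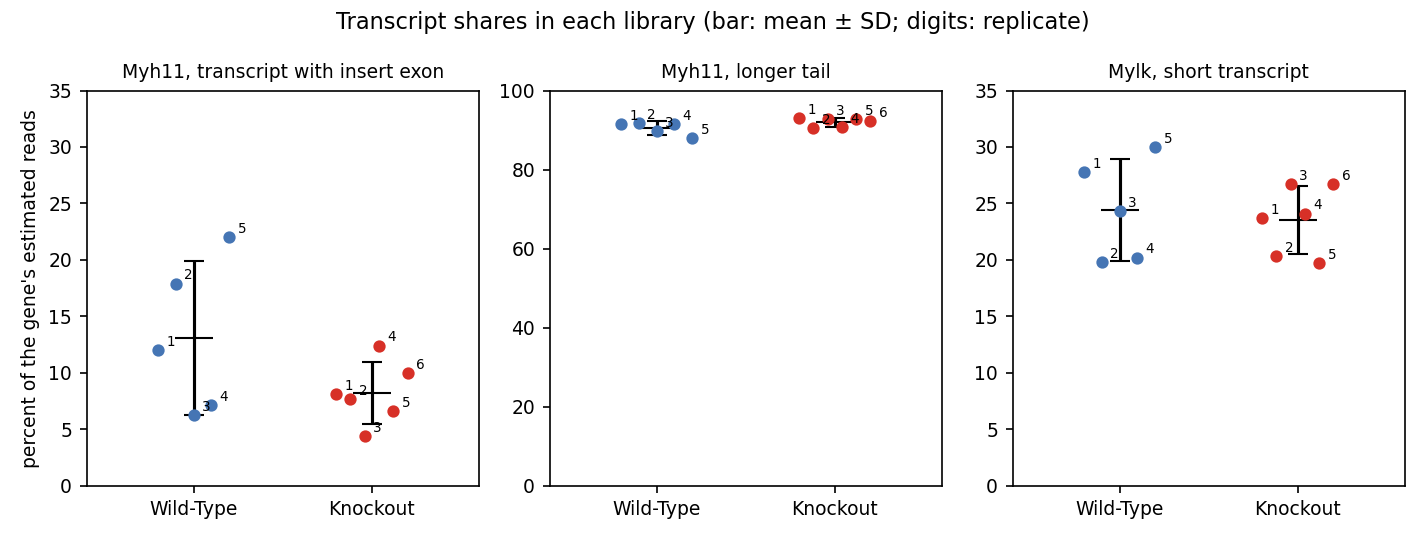
Percent of a gene's estimated reads assigned to the Myh11 transcript with the insert exon (left), the longer-tail Myh11 transcripts (middle) and the short Mylk transcript (right) in each library, with mean and SD as bars and replicate numbers beside the points. Wild-Type 5 has the highest insert share (22.0%) and the highest short Mylk share (30.0%).

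Most other contractile genes also had higher means in Knockout, and none was called. Of 15 further contractile genes, 14 were higher in Knockout and 1 lower (median log2 fold change 0.25), beside 48.3% of all genes higher. With an unadjusted edgeR p under 0.05, 1 of the 15 was higher, beside 6.31% of all genes. The tropomyosin gene Tpm1 (0.70 ± 0.38 SE, edgeR adjusted p = 0.483) and Tpm2 (0.37 ± 0.19 SE, edgeR adjusted p = 0.468) are also made in skeletal muscle. The sum of 10 skeletal muscle markers ran from 3.28 to 2406 CPM in Knockout, highest in Knockout 1, against 2.20 to 239 CPM in Wild-Type. The part of skeletal muscle in the values of these contractile genes was not tested. Lmod1, a smooth muscle actin nucleator, had 0.23 ± 0.11 (SE, edgeR adjusted p = 0.406), and the light chain gene Myl6 0.12 ± 0.11 (SE, edgeR adjusted p = 0.685).

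Of 21 genes of oxytocin receptor signalling and light chain control, 13 were higher and 8 lower in Knockout (median 0.07), beside 48.3% of all genes higher. None was lower with an unadjusted edgeR p under 0.05, and beside 6.31% of all genes, 3 of the 21 were higher with such a p. These were Plcb1, a phospholipase C downstream of the receptor (0.79 ± 0.16 SE, edgeR adjusted p = 0.126), the calmodulin gene Calm2 (0.25 ± 0.08 SE, edgeR adjusted p = 0.274) and the protein kinase C gene Prkca (0.62 ± 0.26 SE, edgeR adjusted p = 0.369). Plcb1 stood at 2.53 ± 0.474 CPM in Knockout against 1.46 ± 0.105 CPM in Wild-Type (SD; n = 6 and n = 5). The abundant gene Rhoa, a regulator of the light chain phosphatase, lay near 0 (-0.01 ± 0.06 SE). Of 10 tested regulators of contractile genes, 5 were higher and 5 lower (median -0.01). Mrtfa was lower with an unadjusted edgeR p under 0.05, as were 6.08% of all genes, and no other regulator had such a p. Srf, the factor that binds the promoters of actin genes, had 0.09 ± 0.17 (SE, edgeR adjusted p = 0.855), and Mrtfa, its coactivator, -0.27 ± 0.11 (SE, edgeR adjusted p = 0.368).

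Of 19 further basal genes that passed the filter, 17 were higher and 2 lower in Knockout (median 0.29), beside 48.3% of all genes higher. With an unadjusted edgeR p under 0.05, 7 of the 19 were higher, beside 6.31% of all genes. Lamb3, which encodes a laminin chain of the basement membrane, had 0.45 ± 0.14 (SE, edgeR adjusted p = 0.274), and the laminin gene Lama3, named after its value was seen, 0.40 ± 0.13 (SE, edgeR adjusted p = 0.278). The growth factor receptor gene Egfr had 0.43 ± 0.12 (SE, edgeR adjusted p = 0.269) and the caveolin gene Cav1 0.39 ± 0.15 (SE, edgeR adjusted p = 0.350). Lists chosen with earlier results in view are described only, and nothing particular to them is drawn from these counts.

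Markers of vascular smooth muscle, which expresses the same contractile genes, and of other parts of the tissue were set beside these values. The sum of 11 vascular smooth muscle and pericyte markers ran from 35.8 to 52.2 CPM in Knockout against 30.4 to 50.3 CPM in Wild-Type; 5 were higher and 6 lower (median -0.02), all had reads, and Wild-Type 2 stood at 41.4 CPM, above the median library (39.4 CPM). Of 12 luminal markers, 11 were higher in Knockout (median 0.31), with sums of 692 to 1141 CPM against 563 to 1019 CPM, lowest in Wild-Type 2. Of 9 fibroblast markers, 7 were higher (median 0.33; 278 to 664 against 215 to 472 CPM), again lowest in Wild-Type 2. Adipocyte marker sums did not overlap between genotypes (1166 to 1717 CPM in Knockout, 706 to 1036 CPM in Wild-Type), beside 1.32% of single genes. Much of these sums was 1 gene, Cfd, with means of 905 CPM in Knockout against 527 CPM in Wild-Type. Of the 8 adipocyte markers, 7 were higher and 1 lower (median 0.29). All 12 milk protein genes were lower in Knockout (median -0.25). The share of counts in these milk genes was 62.0% to 68.2% in Knockout and 65.7% to 72.1% in Wild-Type libraries. Of 8 B cell and lymph node markers, 5 passed the filter. All 5 were lower in Knockout with an unadjusted edgeR p under 0.05 (median -2.92), a class that held 6.08% of all genes. The sums over the 8 were 1.14 to 16.9 CPM in Knockout. They were 68.9, 21.8 and 95.7 CPM in Wild-Type 2, 4 and 5. In Wild-Type 1 and 3 they were 2.03 and 4.65 CPM, within the Knockout range. The part of these tissue differences in the values of the 10 genes was not tested.

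The genes whose levels ran most like those of a member were taken from 11102 genes with at least 1 CPM on average, as a description over 11 libraries that share their scaling. For Acta2 they were Cald1 (r = 0.96), Actg2 (r = 0.93) and Myl9 (r = 0.92), which encode caldesmon, smooth muscle gamma-actin and a myosin light chain. For Oxtr they were Car2 (r = 0.92), Loxl3 (r = 0.92) and Tmem132a (r = 0.91). For Krt14 they were the desmosome gene Dsp (r = 0.92, but rho = 0.67), Trim37 (r = 0.88) and Bmp1 (r = 0.88).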

How the data were processed

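Estimated counts of reads and TPM were deposited by the authors as 1 transcript table per library, per the file headers in the layout of Salmon; the submitters' processing notes name Salmon 1.3.0, DESeq2 1.28.1 and GRCm38.p6. The authors also deposited gene values normalized with DESeq2, used here as a signal in 1 alternative. The listed lengths are those of coding sequences. Counts were summed per gene over GENCODE M21 transcripts and rounded. The 752 unmatched transcripts held 0.195% to 0.265% of a library's reads and were left out. Genes were filtered with filterByExpr, scaled with TMM and tested in edgeR 4.0.16 (R 4.3.3) with genotype as the only term, after a test on simulated data. Ratios, correlations and alikeness used log2 CPM with a prior count of 2. For ratios and transcript shares, two-sided permutation tests were exact (462 arrangements of the libraries). Shared sequence was counted in 31-base words of coding sequences from GRCm38.

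Alternatives were DESeq2 1.42.0, limma 3.58.1 on the deposited signal, other scalings and filters, transcript length offsets, a replicate block and leaving out each library. Named genes are all members, from each pathway list the 3 with the smallest p and the 2 with the highest TPM, from each marker list the 2 with the highest TPM, any gene past the threshold, and 3 genes most like Krt14, Oxtr and Acta2; a marker gene is named only where a result turns on it. Members and lists were chosen with earlier results of these data known. The depth of each library limits precision, and Trp63 had the fewest reads of the members. Some genes that the naming rule selects are not reported here.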

Additional observations from a re-analysis of the deposited data

Results flagged for a closer look

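In 3 sets of values, the gap between the outermost library and its nearest neighbour, divided by the range of its genotype group, was above Dixon's 95% critical value for that group size. Acta2 in Knockout 5 stood at 140 CPM, against 186 to 213 CPM in the other Knockout libraries. Tagln in the same library stood at 46.6 CPM, against 65.3 to 70.6 CPM. The log2 ratio of Krt5 to Acta2 was -1.65 in Knockout 2, against -2.33 to -2.13 in the other Knockout libraries. The gap took 0.631, 0.778 and 0.709 of the range. Among the 36 sets of values examined, chance alone sets a library apart in about 1 in 20.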

How the results depend on the processing

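No member was called under any of the 9 alternatives that kept all libraries or in the 11 fits without 1 library, and all 10 fold changes stayed above 0 in them. The members' median log2 fold change lay between 0.20 and 0.43 with all libraries, the latter with library totals only, where the median of all genes was 0.18 and 9 members had an unadjusted p under 0.05. It lay between 0.13 (without Wild-Type 2) and 0.36 (without Wild-Type 5) with 1 library left out. With Knockout 2 and Wild-Type 2 both left out, chosen after seeing the data, Tagln had -0.01 and 13 genes were called. Over all genes DESeq2 called 146 (87 higher, 59 lower). Leaving out 1 library gave 0 to 28 calls: 0 without Knockout 3 or Knockout 6, 2 without Knockout 1 or Wild-Type 3, 13 without Wild-Type 1 or Wild-Type 5, 14 without Wild-Type 4 and 28 without Knockout 2. Expression gave no sign that replicate numbers pair the libraries. Deviation correlations ran from -0.223 to 0.187, and 0 of 5 Wild-Type libraries correlated best with the Knockout library of their own number. With so few libraries this cannot exclude a pairing. A fit with the replicate block, in which Knockout 6 has no partner, called 0 genes. The difference in the log2 ratio of Oxtr to Acta2 was 0.00 with a prior count of 0.5, -0.10 on TPM or with effective length offsets, and -0.06 to 0.07 with 1 library left out. That of Krt5 to Acta2 was 0.17 to 0.34, highest without Wild-Type 3 at 0.34 (exact permutation test, p = 0.0286). The difference in the short Mylk share was -2.04 to 0.497 percentage points, positive only without Wild-Type 5 (0.497). Of the pairs of members, 13 were past the threshold without Wild-Type 2 and Knockout 2, and 44 with log2 CPM on library totals. The causes were not tested. Trp63 had the fewest reads of the members, at 21 to 89 a library.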
